A study of Mus musculus with 6 samples.

Results

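The genes described here encode, or carry names of, the calcium/calmodulin-dependent kinases (CaMK), protein kinase A (PKA) and protein kinase C (PKC) in mouse lumbar spinal cord. They were chosen by name: every probe set on either array type with 1 gene symbol in the platform annotation that begins with Camk, Prkc, Prkac or Prkar. This gave 27 genes of the 18193 named on the arrays, measured by 76 probe sets, 41 on array type A and 35 on array type B. They comprised 9 CaMK genes, 2 genes of PKA catalytic subunits, 4 of PKA regulatory subunits, 8 PKC genes, and 4 genes whose names match without encoding an active kinase of these families. A total of 16 genes lay on both array types, 8 on A alone and 3 on B alone.

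The study set Egr3-deficient against wild-type cords at postnatal day 27, and its title concerns fusimotor neurons, the gamma motor neurons that supply muscle spindles. RNA from lumbar segments L3 to L5 of 3 cords was combined into each pool. Pool 1 (RNA 450) and pool 2 (RNA 500) are labelled Egr3-deficient, and the remaining pool (RNA 499) is wild type; each was hybridised once to A and once to B. Egr3 is an immediate early transcription factor. The labels give no strain, sex or allele, and a remark on acclimatization stands on pool 2 and the wild-type pool but is missing for pool 1. With a lone wild-type pool the wild-type spread is unknown. The p-values measure only the spread between the 2 Egr3-deficient pools together with a prior taken across probe sets. Ratios of both pools share the wild-type pool, so their agreement does not show how far its reading may be off.

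These kinases turn second messengers into phosphorylation. CaMKI, CaMKII and CaMKIV bind calcium-loaded calmodulin, and CaMKII is an abundant synaptic protein in neurons. PKA is held inactive by a pair of regulatory subunits until cyclic AMP releases its catalytic subunits, which among other targets phosphorylate CREB, a factor that binds the cyclic AMP response element. The conventional PKC isoforms need calcium and diacylglycerol, the delta, epsilon, eta and theta isoforms need diacylglycerol without calcium, and the atypical zeta and iota isoforms need neither.

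The promoter windows of the genes were searched for the EGR consensus GCGTGGGCG and for the cyclic AMP response element TGACGTCA, since PKA and CaMKIV act on CREB. RefSeq windows, from 250 bases before to 50 bases after a start in build GRCm38.p6, were at hand for 21 of the 27 genes and numbered 38, and both strands were read. None of the 38 held the EGR consensus, which 0.612% of all 32851 windows of that length held. The full response element stood in 3 windows of 2 genes, Prkar1a and Prkcz, against 1.79% of all windows. Both Prkar1a windows overlap and hold the same site. The core TGACG, which every full element contains on each strand, stood in 12 of the 38 windows (31.6%) and in 20.8% of all. Below are 1 of the Prkar1a windows and the Prkcz window with the full element, and the window with a core of each catalytic subunit gene, Prkaca and Prkacb, whose measured values lay on opposite sides of wild type. Capitals mark the core or, where cores overlap, the full element. The Prkar1a window is chr11:109650699-109650998 on the plus strand, with the full element starting 49 bases and a further core 187 bases before the start. The Prkcz window is chr4:155345740-155346039 on the minus strand, with the element 7 bases before the start. The Prkaca window shown is chr8:83972728-83973027 on the plus strand, and the Prkacb window shown is chr3:146812897-146813196 on the minus strand. The Prkaca window holds a core 120 and 6 bases before the start and the Prkacb window 1 core 102 bases before it. The other windows of these 2 genes, 1 of Prkaca and 2 of Prkacb, hold no core. A match of letters is not evidence of binding.
Prkar1a: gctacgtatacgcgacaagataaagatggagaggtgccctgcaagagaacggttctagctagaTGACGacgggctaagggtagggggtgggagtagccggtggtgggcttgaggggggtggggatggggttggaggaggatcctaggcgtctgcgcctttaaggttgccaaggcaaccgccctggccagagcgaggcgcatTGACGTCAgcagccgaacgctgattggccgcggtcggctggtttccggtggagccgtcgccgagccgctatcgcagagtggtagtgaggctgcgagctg
Prkcz: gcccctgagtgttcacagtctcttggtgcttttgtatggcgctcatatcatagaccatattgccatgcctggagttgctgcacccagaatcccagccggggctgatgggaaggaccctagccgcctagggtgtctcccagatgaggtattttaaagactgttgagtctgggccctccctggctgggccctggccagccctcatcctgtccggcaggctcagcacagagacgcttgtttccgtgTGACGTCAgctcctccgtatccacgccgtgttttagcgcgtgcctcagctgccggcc
Prkaca: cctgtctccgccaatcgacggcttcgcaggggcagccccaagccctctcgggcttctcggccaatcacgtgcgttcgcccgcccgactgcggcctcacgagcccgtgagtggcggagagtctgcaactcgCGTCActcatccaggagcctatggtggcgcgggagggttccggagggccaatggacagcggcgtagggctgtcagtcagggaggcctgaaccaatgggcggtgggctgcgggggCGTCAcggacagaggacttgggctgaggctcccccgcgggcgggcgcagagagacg
Prkacb: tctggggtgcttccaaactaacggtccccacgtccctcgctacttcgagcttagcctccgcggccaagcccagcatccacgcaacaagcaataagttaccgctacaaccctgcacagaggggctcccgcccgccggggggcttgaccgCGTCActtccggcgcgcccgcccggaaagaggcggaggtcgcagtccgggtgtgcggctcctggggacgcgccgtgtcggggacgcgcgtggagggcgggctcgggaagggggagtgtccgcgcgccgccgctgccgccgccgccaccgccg

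Each deposited value is 1 linear intensity per probe set and array. Intensities of different probe sets are not comparable as levels. Differences below are on a log2(intensity + 16) scale after quantile normalization within an array type, as the mean of both Egr3-deficient pools minus the wild-type pool, and they understate changes of dim genes. A probe set was kept where its mean reached the 40th percentile of its array type, about 36.7 in intensity on A and 55.9 on B. Of the member probe sets 33 of 41 were kept on A and 28 of 35 on B, and each of the 27 genes kept at least 1. A call is an adjusted p under 0.05 by limma over all kept probe sets of an array type.

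Several properties of the pools touch these results. Egr3 was not below wild type in both pools on either array type: its probe set read 24.9 and 52.7 against 40.6 in wild type on A, and 210 and 107 against 75.3 on B. No source used here says whether they read the deleted part, so the pools are called by their labels. Neuronal markers were present in every pool, as were astrocyte, oligodendrocyte and microglial ones. Of 11 kept neuronal marker probe sets on A, 9 lay below wild type in both pools after normalization. Marker sums here add the deposited intensity of the brightest probe set of each gene. For the 8 neuronal genes on A the sum was 11080 and 12850 against 16840 in wild type. On B, 5 of 8 lay below in both pools after normalization. The deposited sum there, over 5 genes, was 21960 and 23290 against 20630 in wild type. Of 15 kept astrocyte probe sets on A, 10 lay below wild type in both pools and 3 above, and on B 5 of 6 lay below. Among all kept probe sets, 34.8% on A and 36.6% on B lay below in both pools. Aqp4 (log2 difference -1.84, adjusted p = 0.0115) and Slc1a2 (-1.18, adjusted p = 0.0403) were called lower on B. The brightest probe sets of the other astrocyte markers had no call and no common side. Aldh1l1 was higher by 0.90 on A. Gfap was higher by 0.28 on A, and by 0.26 on B, where its pool 2 stood at -0.02. Lower values came from Gja1, with -0.57 on A, and from Slc1a3, with -0.10 for A and -0.20 for B. On A, Slc1a2 stood at 0.05 and Aqp4 at -1.74, with neither called. The motor neuron markers Slc18a3 and Prph were kept on A and Chat on B, with differences of 0.43, -0.34 and 0.74 and no call, while Isl1, Mnx1 and Slc5a7 were below the filter on A. The part of these markers in the kinase results was not tested. All 11 skeletal muscle markers on A were above wild type in both pools, with a summed intensity of 4456 and 5704 against 180 in wild type. Liver markers on A summed to 371 in pool 1 and 9446 in pool 2 against 106 in wild type. For the 18S control on A, 3' over 5' signal came to 2.27 and 1.08, with 0.0493 in wild type. The 100 probe sets that A and B share had a median log2 ratio of 0.56 in pool 1 and 0.34 in pool 2 on B, against 0.21 and 0.11 on A.

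As a group the kinase genes did not move in 1 direction. On A, 15 of the 33 kept member probe sets exceeded wild type in both pools and 16 lay under it in both, where 47.9% and 34.8% of all kept probe sets were. On B, 11 of 28 were above and 9 below, beside 38.9% and 36.6% of all. Their median log2 difference was 0.052 on A, beside 0.11 for all kept probe sets, and -0.026 on B, beside 6.3e-05. Limma called 0 members on A, where it called 0.0663% of all kept probe sets higher and 0.0% lower. At an unadjusted p under 0.05 there were 0 members higher and 5 lower on A, where 1077 and 1730 of all 13576 kept probe sets were, and 6 higher and 4 lower on B, where 1000 and 923 of all 13507 were. On B it called 2 members higher and 0 lower, beside 1.02% and 0.607% of all. Members at least 2-fold from wild type in both pools numbered 0 higher and 2 lower on A (1.2% and 4.35% of all), and 2 higher and 1 lower on B (4.27% and 1.8% of all). As shares of the kept members, those past 2-fold were 6.06% lower on A, and 7.14% higher and 3.57% lower on B, 1 or 2 probe sets each. The CaMK genes on B, from -1.30 to 2.68, held both extremes of the members there.

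**Figure D1:**
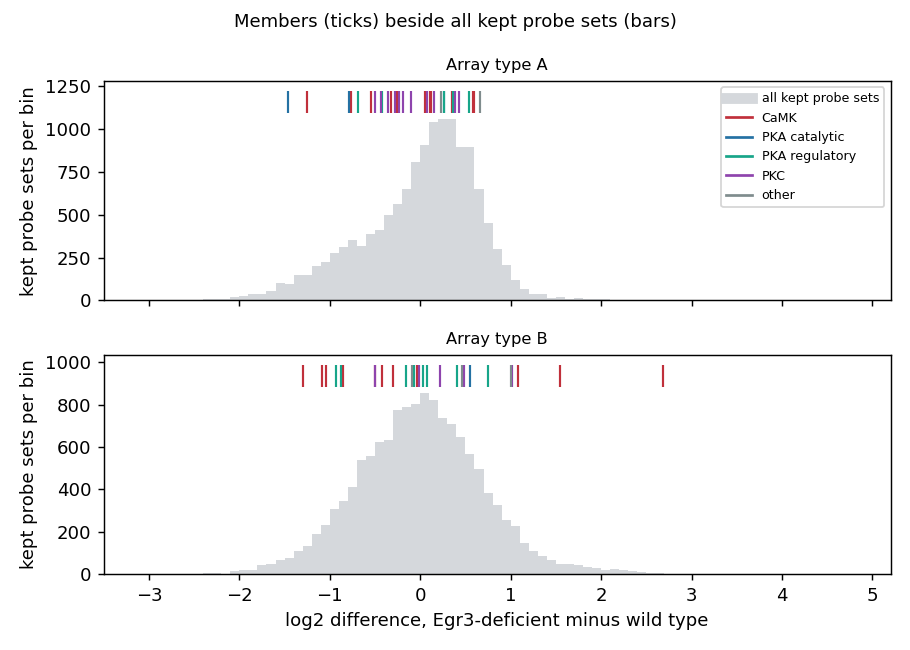
Histogram of log2 differences (Egr3-deficient minus wild type, bins of 0.1) over all kept probe sets of each array type, as bars, with each kept member as a tick coloured by family. Members lie on both sides of 0, and the rightmost tick on array type B, at 2.68, is a Camk2a probe set.

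Among the CaMK genes, Camk2a gave the only calls. Camk2a encodes the alpha subunit of CaMKII, which is known for its part in synaptic plasticity in the forebrain; the same gene also yields a protein without kinase activity in skeletal muscle. Probe set 1437125_at on B read 317 and 348 in pools 1 and 2, against 44.1 in wild type. It rose by a log2 difference of 2.68 (SE 0.46, limma adjusted p = 0.000676), with 2.62 in pool 1 and 2.74 in pool 2. Its wild-type reading lay under the filter level of about 55.9. This probe set was thus kept only through the Egr3-deficient pools, where it is high, which limits its call. Probe set 1457311_at read 1600 and 1296 against 432 in wild type and rose by 1.55 (SE 0.39, adjusted p = 0.0268). Both Egr3-deficient pools were well above wild type on both probe sets. The SD between these pools was 0.087 for the first and 0.045 for the second on the log2 scale. It does not cover the spread of wild type. The other 3 kept Camk2a probe sets on B did not pass. Of these, 1442707_at read 183 and 148 against 79.5 in wild type (log2 difference 1.08, adjusted p = 0.286). By contrast 1441734_at read 50.6 and 105 against 163 (-0.85, adjusted p = 0.526), and 1443876_at read 88.7 and 76.1 against 138 (-0.50, adjusted p = 0.752). Thus 3 probe sets of this gene exceeded wild type in both pools, 2 lay under it, and which part of the gene each one reads was not looked up. On A the Camk2a probe set read 1.075 and 5.55 against 2.001 in wild type and was below the filter.

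The called Camk2a probe sets lie on B alone. Skeletal muscle markers were above wild type in both pools on A and, after normalization, on B. The 2 muscle probe sets on B, of Ckm and Myh4, differed by 0.35 and 0.81 (limma adjusted p = 0.814 and 0.616). As deposited, Myh4 there read 53.4 and 180 against 60.5 in wild type. These 2 genes summed to 222 and 340 against 197 in wild type. The part of the muscle markers in the Camk2a result was not tested. Both calls were lost with no quantile normalization (adjusted p = 0.0854 for 1437125_at and 0.268 for 1457311_at), with no filter (0.455 for both), without the intensity trend (0.134 and 0.312) and on scaling by shared probe sets (0.335 for both). The call of 1457311_at was also lost under median centring (0.0570). Over the settings with a test the log2 differences ran from 1.95 to 3.09 for 1437125_at and from 1.12 to 1.87 for 1457311_at.

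Camk2d, the delta subunit of CaMKII, had readings below wild type, with no call in the fit with quantile normalization. On A, 1427763_a_at read 57.0 and 87.1 against 204 in wild type (log2 difference -1.25, SE 0.34, adjusted p = 0.161), at least 2-fold lower in both pools; under median centring it was called (adjusted p = 0.0416). The other kept probe set on A, 1422659_at, read 63.9 and 71.5 against 96.1 (-0.32, adjusted p = 0.577). On B, 1439168_at read 100.5 and 99.9 against 246 (-1.09, SE 0.47, adjusted p = 0.260), again past 2-fold in both pools. The pools parted on 1459457_at, which read 59.5 in pool 1 and 235 in pool 2 against 335 in wild type (-1.30, adjusted p = 0.183), and 1460630_at read 77.7 and 125 against 116 (-0.038, adjusted p = 0.990). Of 5 kept Camk2d probe sets, 4 were below wild type in both pools. In bulk cord RNA, fewer cells of a type and less RNA per cell cannot be told apart.

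The beta and gamma subunits of CaMKII differed little from wild type. Camk2b read 289 and 250 against 254 in wild type (log2 difference 0.11, SE 0.31). Camk2g read 722 and 750 against 695 on 1423942_a_at (0.05, adjusted p = 0.921) and 782 and 672 against 649 on 1423941_at (0.12, adjusted p = 0.807). The 3 pools lay close together on these probe sets, and the SEs were 0.31 for Camk2b and 0.26 for both of Camk2g.

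CaMKI and CaMKIV genes spread to both sides. Camk1, a ubiquitous CaMKI gene, read 174 and 127 against 100.1 in wild type on 1417604_at (0.59, adjusted p = 0.355), with its other probe set at 0.58. Camk1g, a brain-enriched CaMKI gene, read 286 and 223 against 202 (0.35, adjusted p = 0.551). Camk1d lay below wild type on every probe set: 38.1 and 51.7 against 95.2 on 1426389_at (-0.77, adjusted p = 0.241), 80.4 and 123 against 165 on 1452050_at (-0.55), and 82.2 and 91.1 against 136 on B (-0.43, adjusted p = 0.798). Camk4, a nuclear neuronal kinase that phosphorylates CREB, read 144 and 214 against 377 in wild type on 1439843_at of B (-1.05, adjusted p = 0.259). A further Camk4 probe set on B, 1441974_at, read 5.93 and 11.4 against 101 in wild type, below the filter by its mean and so not tested. On A the 3 Camk4 probe sets were all below the filter. Camkk2, the kinase that activates CaMKI and CaMKIV, read 131 and 153 against 183 on 1424474_a_at (-0.26), 76.9 and 62.1 against 70.8 on 1424475_at (0.07), and 565 and 327 against 496 on B (-0.30, adjusted p = 0.837), with no common side.

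**Figure D2:**
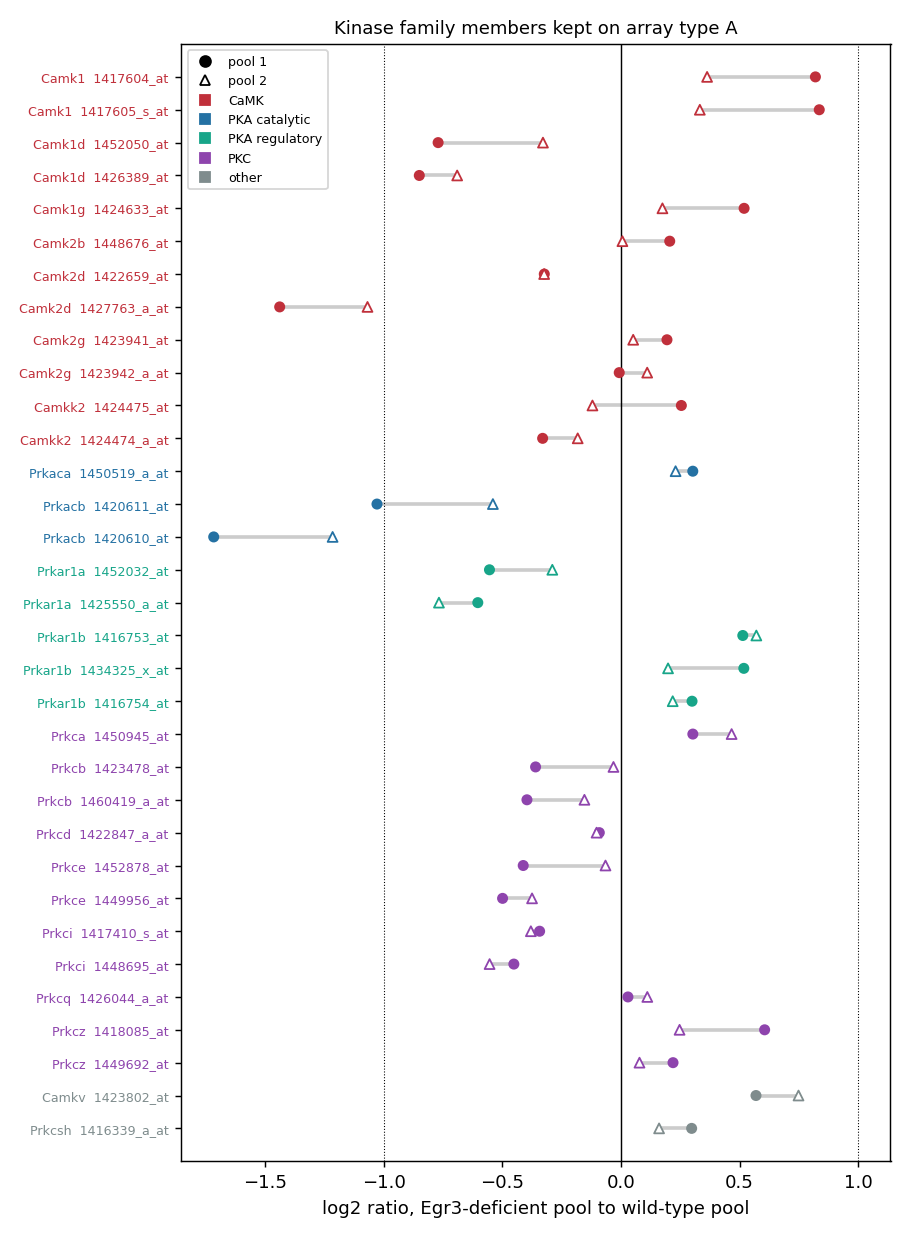
Log2 ratio of each Egr3-deficient pool to the wild-type pool (x axis) for the 33 member probe sets kept on array type A, with pool 1 as filled circles and pool 2 as open triangles, coloured by family, and dotted lines at 2-fold. The 2 probe sets past 2-fold in both pools, one of Camk2d and one of Prkacb, lie to the left.

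**Figure D3:**
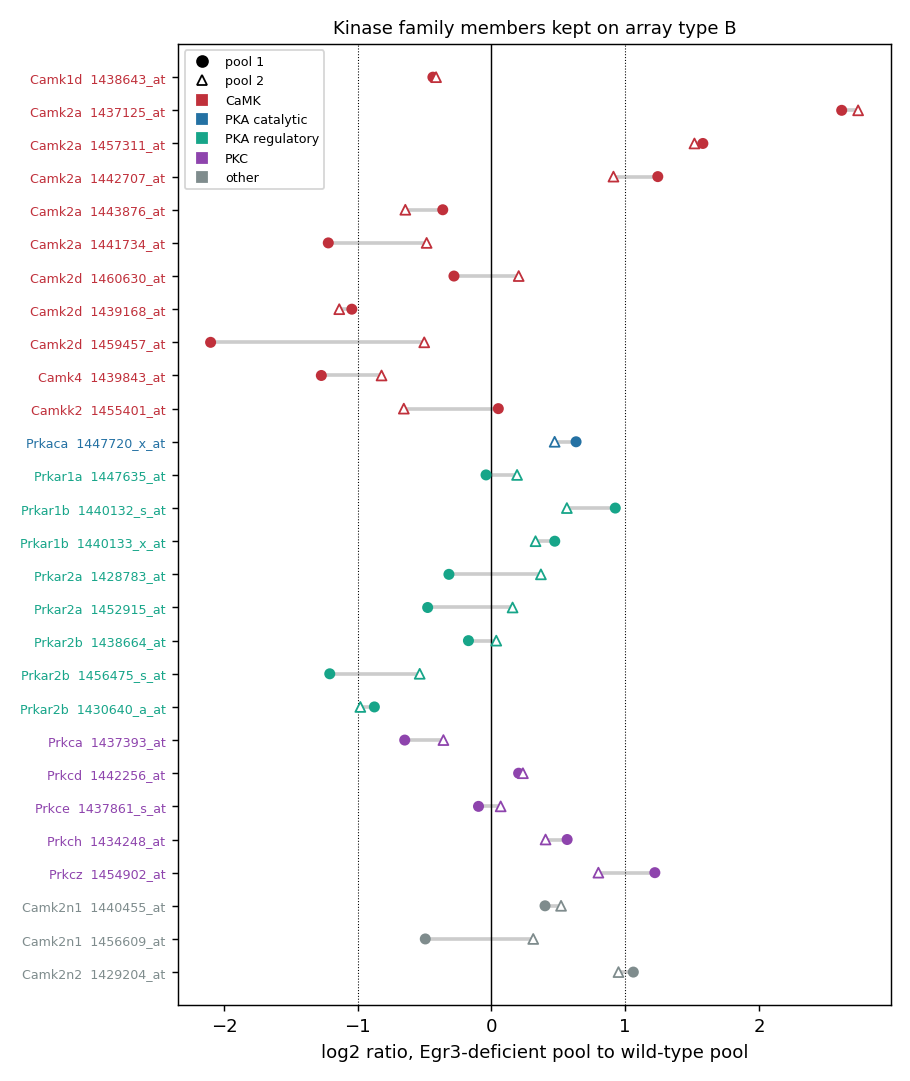
The same plot for the 28 member probe sets kept on array type B. The 2 called Camk2a probe sets lie to the right, with both pools close together, while 2 other Camk2a probe sets lie left of 0.

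CaMKII inhibitor genes were measured on B. Camk2n2, which encodes a small protein that binds and inhibits active CaMKII, read 6718 and 4607 against 2069 in wild type (log2 difference 1.01, SE 0.30, adjusted p = 0.0689). Both pools were above wild type by similar amounts, 1.06 and 0.95. The adjusted p ran from 0.0161 to 0.560 over the settings, and it was called with a pseudocount of 64 and with a stricter filter, at the 60th percentile. Its related gene Camk2n1 read 409 and 435 against 297 on 1440455_at (0.46, adjusted p = 0.706), whereas its bright probe set 1456609_at read 5189 and 7191 against 4268 and had a normalized difference of -0.09 (adjusted p = 0.939). The sign of the bright probe set turned to 0.69 under median centring. On A, Camkv, a kinase-like protein of neuronal vesicles without kinase activity, read 171 and 203 against 120 (0.66, adjusted p = 0.283).

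The PKA catalytic subunit genes lay on opposite sides of wild type. Prkacb, the beta subunit, read 73.9 and 120 against 300.3 in wild type on 1420610_at of A, the lowest difference of any kept member there (-1.47, SE 0.36, adjusted p = 0.161) and past 2-fold in both pools. Under median centring it was called (adjusted p = 0.0190). Its other kept probe set 1420611_at read 592 and 806 against 1132 (-0.78, SE 0.29, adjusted p = 0.205). Prkaca, the alpha subunit, read 360 and 338 against 291 on A (0.27, adjusted p = 0.615) and 7228 and 5062 against 2950 on B (0.55, SE 0.29, adjusted p = 0.383). Pool 1 was farther from wild type than pool 2 on each of these 4 probe sets, and none passed in the fit with quantile normalization. The difference between the 2 genes was not itself tested. The Prkacb probe set on B read 11.1 and 58.7 against 45.1, below the filter.

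**Figure D4:**
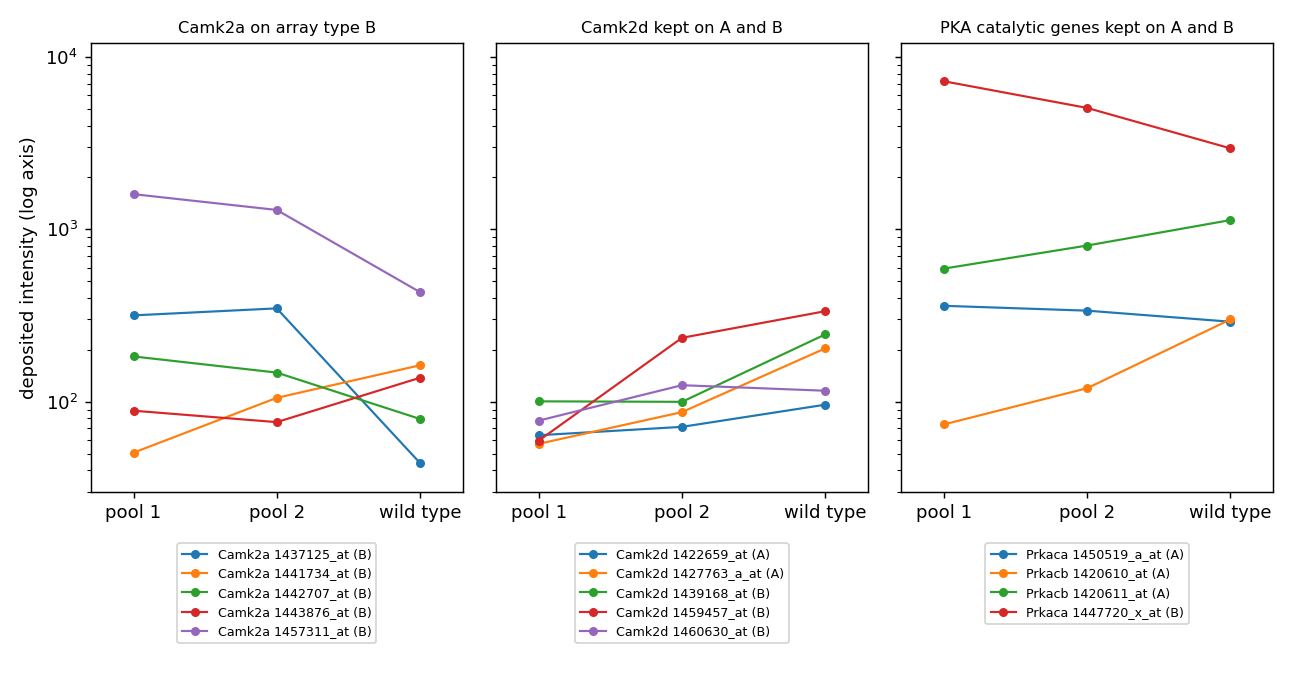
Deposited intensity (log axis) in pool 1, pool 2 and the wild-type pool for the 5 Camk2a probe sets on array type B, the 5 kept Camk2d probe sets and the 4 kept probe sets of Prkaca and Prkacb, with 1 line per probe set and the array type in brackets. For Camk2a 3 lines are lower and 2 higher in wild type than in both Egr3-deficient pools, while both Prkacb lines are higher and both Prkaca lines lower in wild type.

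PKA regulatory subunits showed the same kind of division. Prkar1b, the neuronal type I beta subunit, was above wild type in both pools on all 5 of its probe sets. These are not independent readings: 1416753_at and 1416754_at are annotated to the same sequence, as are 1440132_s_at and 1440133_x_at. On A, 1416753_at read 1176 and 1138 against 756 (0.54, SE 0.24, adjusted p = 0.252), 1434325_x_at read 2861 and 2262 against 1773 (0.36) and 1416754_at read 396 and 367 against 319 (0.26). On B, 1440132_s_at read 9525 and 5722 against 3003 (0.75, SE 0.29, adjusted p = 0.184) and 1440133_x_at read 5233 and 3735 against 2464 (0.40). None passed. Prkar1a, the widely expressed type I alpha subunit, read 872 and 732 against 1207 in wild type on 1425550_a_at (-0.69, SE 0.25, adjusted p = 0.199) and 1439 and 1613 against 1828 on 1452032_at (-0.42), but on B its pools parted, at log2 ratios of -0.04 and 0.19 (difference 0.08, adjusted p = 0.972). Prkar2b, the neuronal type II beta subunit, was below wild type in both pools on 1430640_a_at, at 148 and 141 against 296 (-0.93, adjusted p = 0.343), and on 1456475_s_at, at 173 and 299 against 423 (-0.87). Its remaining probe set read 239 and 287 against 280 (-0.07). Prkar2a, the type II alpha subunit, had pools on either side of wild type: 342 and 563 against 413 on 1428783_at (0.03) and 523 and 796 against 643 on 1452915_at (-0.16, adjusted p = 0.929). A dim Prkar2a probe set on B, 1432409_at, read 67.5 and 62.9 against 16.6 and was below the filter by its mean.

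Bright probe sets on B tended to be above wild type as a class, which touches Prkaca, Prkar1b and Camk2n2. Among the brightest 10% of kept probe sets on B, the median log2 ratio of deposited values was 0.54 in pool 1 and 0.31 in pool 2, and the median normalized difference was 0.17. Of the members 8 lay in that class, including the called 1457311_at of Camk2a. Scaled instead on the 100 shared probe sets, a setting chosen after seeing the data, the median of all kept probe sets on B moved to -0.66 and that of the members to -0.51.

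PKC genes gave no call on either array type. The atypical isoform gene Prkcz had the largest difference above wild type among them: 844 and 582 against 322 on B (log2 difference 1.01, SE 0.42, adjusted p = 0.245), with 1.22 in pool 1 and 0.80 in pool 2. On A it read 671 and 499 against 422 on 1418085_at (0.43, adjusted p = 0.422) and 57.3 and 57.7 against 56.0 on 1449692_at (0.15). All 3 Prkcz probe sets exceeded wild type in both pools. The full response element printed above lies in 1 of its windows. Prkar1a, the other gene with that element, differed by -0.69 and -0.42 on A and 0.08 on B. Any link between the element and these values was not tested. The other atypical gene, Prkci, was below on both of its probe sets, at 43.3 and 46.0 against 76.6 on 1448695_at (-0.50, adjusted p = 0.395) and 159 and 161 against 220 on 1417410_s_at (-0.36).

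Among the conventional isoforms, Prkca read 55.8 and 72.5 against 50.4 on A (0.38, adjusted p = 0.516) and 577 and 692 against 790 on B (-0.50, adjusted p = 0.642), so its probe sets on A and B lay on opposite sides. Prkcb read 636 and 727 against 803 on 1460419_a_at (-0.28, SE 0.27, adjusted p = 0.564) and 48.8 and 74.2 against 78.8 on 1423478_at (-0.20). Among the isoforms that need no calcium, Prkce read 67.7 and 82.6 against 116 on 1449956_at (-0.44, adjusted p = 0.456) and 175 and 234 against 249.9 on 1452878_at (-0.24), yet 578 and 633 against 552 on B (-0.01). Prkch read 374 and 329 against 248 on B (0.49, adjusted p = 0.694). Prkcd differed by -0.10 on A and 0.22 on B. Prkcq, the theta isoform of T cells and skeletal muscle, read 118 and 132 against 127 (0.07, SE 0.32, adjusted p = 0.914). Muscle markers on A were far above wild type in the same pools, and their part in the Prkcq value was not tested. Of the T cell markers, Cd4, Cd3g, Cd3d and Cd8a were below the filter on A. Cd3e was kept there, at 27.2 and 43.0 against 41.9 in wild type, and Cd8a was kept on B, at 420 and 207 against 242 in wild type. Prkcsh, a subunit of glucosidase II in the endoplasmic reticulum that shares only the name, read 280 and 255 against 232 (0.23, adjusted p = 0.681).

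The 15 member probe sets below the filter were not tested. On A they numbered 8, of Camk2a, Camk4, Camkk2, Prkar2a, Prkca and Prkch, with intensities from 0.792 to 49.2. On B they numbered 7, of Camk2d, Camk4, Prkacb, Prkar2a, Prkcb and Prkce, with intensities from 1.43 to 101. Of these 15, 1 was at least 2-fold above and 1 at least 2-fold below wild type in both pools, the Prkar2a and Camk4 probe sets described above.

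Genes around the kinases, listed by role, gave 0 calls among 85 kept probe sets on A and 1 among 78 on B, where 1.02% of all kept probe sets were called higher. The call was Dclk2, a kinase of the calmodulin kinase group bound to microtubules, which read 392 and 242 against 65.3 on B (log2 difference 2.10, SE 0.46, adjusted p = 0.00978). Of the 85 on A, 38 exceeded wild type in both pools and 39 lay under it, beside 47.9% and 34.8% of all kept probe sets. On B, 22 were above and 34 below, beside 38.9% and 36.6% of all. Several probe sets can read 1 gene, so the counts below are not of independent genes. Pkia, which encodes a peptide inhibitor of the PKA catalytic subunits, read 37.4 and 67.3 against 216 on A (-1.71, SE 0.36, adjusted p = 0.161). Of 4 kept PKA inhibitor probe sets on A, 2 lay below wild type in both pools and 2 above, 1 of them of Pkig (0.44). All 7 kept calcineurin probe sets on A, of 3 genes, were below wild type in both pools, with a median of -0.90. Calcineurin is a calmodulin-dependent phosphatase, and its Ppp3cb read 120 and 138 against 314 (-1.15, adjusted p = 0.161). On B 1 of its 2 kept probe sets was below in both. Adenylyl cyclases make the cyclic AMP that activates PKA. Their probe sets were above in both pools in 8 of 9 cases on A (6 genes, median 0.27). On B 4 of 7 were above (3 genes, median 0.32). None of the 9 or 7 passed.

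Other lists were divided. Anchoring proteins, which tether PKA, lay under wild type in both pools for 4 of 5 probe sets on A (3 genes, median -0.50). On B 8 of 14 did (7 genes, median -0.38). Their lowest member, Akap8, read 107 and 123 against 335 (-1.39, adjusted p = 0.161). Phosphodiesterases, which break cyclic AMP down, had medians of -0.36 and -0.16, phospholipases C 0.08 and -0.85, and diacylglycerol kinases, which remove the activator of PKC, 0.22 and -0.13. CREB family and coactivator genes had medians of 0.07 and -0.07, with Crebbp at 65.4 and 67.7 against 109 on A (-0.51, adjusted p = 0.390). PKC substrates and scaffolds had medians of 0.06 and 0.53; within them Marcks, a PKC substrate at the membrane, differed by -0.66 on A and 1.27 on B for its probe sets farthest from wild type. Calmodulins and calmodulin-binding proteins had 3 kept probe sets on A (median -0.15), PKA inhibitors 4 on A (-0.52), and the IP3 receptor list 1, of Itpr3 (0.63). The further calmodulin group kinases, among them Dclk2, had medians of -0.52 and 0.16.

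**Figure D5:**
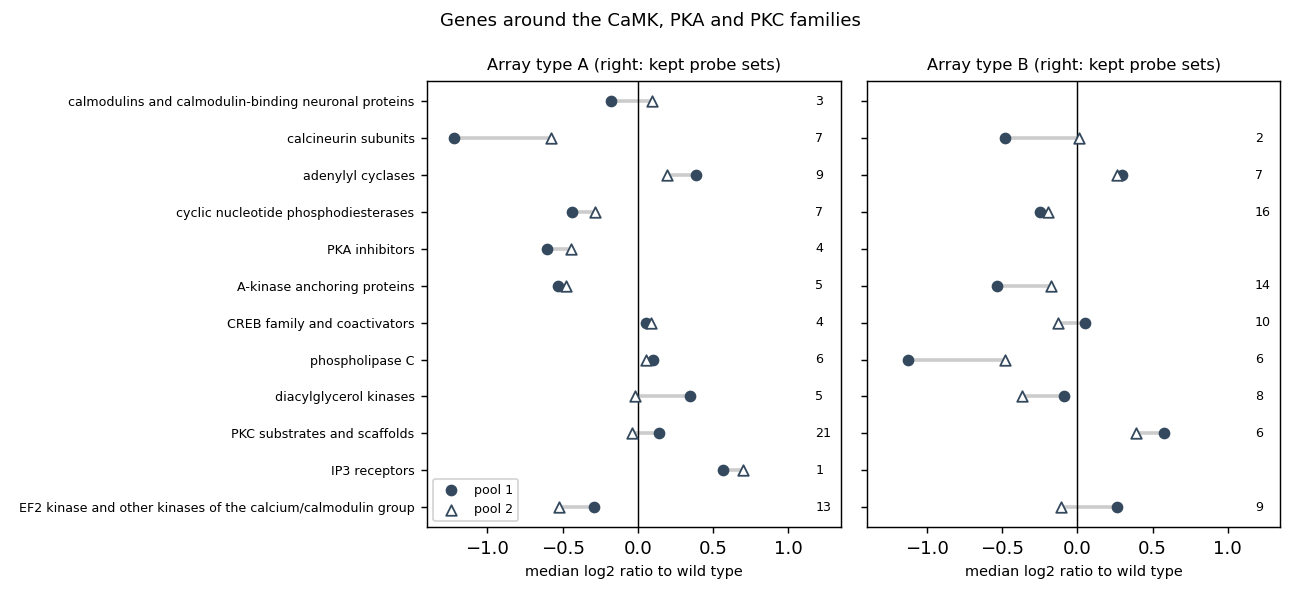
Median log2 ratio to wild type (x axis) of the kept probe sets of each list of genes around the kinases, with pool 1 as filled circles and pool 2 as open triangles, for array types A and B; the number of kept probe sets stands at the right. Calcineurin on array type A and phospholipase C on array type B lie farthest left, with pool 1 farther from 0 than pool 2.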

How the data were processed

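The data are 6 arrays from 3 RNA pools, 2 labelled Egr3-deficient and 1 wild type, each on 2 array types. Values deposited by the authors are linear intensity, 1 per probe set on each array, and a trimmed mean near 150.0 on every array shows that they were scaled. Their summarising program: not given in the sources used here. Member genes, lists and tests were chosen with earlier results of these data known.

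Each array type was fitted alone over all its probe sets except 64 controls. A pseudocount of 16 was added before log2, the 3 arrays were quantile normalized, and probe sets were filtered at the 40th percentile of the mean, which kept 13576 probe sets on A and 13507 on B. Tests were made with limma 3.58.1 (R 4.3.3), by lmFit and eBayes with trend, leaving 1 residual degree of freedom, and adjusted by Benjamini-Hochberg. Wild type was assumed to vary like the other pools. Prior degrees of freedom were 6.54 for A but 52.3 for B, which puts more weight on the prior than on the spread within a probe set. The number of arrays limits precision. Whether the pools of a genotype come from separate litters is not stated.

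Members named with full values were the called ones, those past 2-fold in both pools, the 2 of each family with the largest ratio in their weaker pool, the brightest of each family, and genes whose probe sets differ in sign; other members are named to account for all 27 genes. In each list of surrounding genes the one with the largest ratio in its weaker pool could be named. All 76 member symbols matched the RefSeq gene table of GRCm38.p6 by gene identifier. The test was tried on simulated data with known changes. Wild type was given the same spread there as the other pools, so the trial cannot show how a lone wild-type pool varies. Alternatives were other scalings, pseudocounts, filters, eBayes settings, leaving out a pool and averaging probe sets per gene.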

Additional observations from a re-analysis of the deposited data

How the results depend on the processing

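The design has 3 arrays per type and no replicate of wild type. No paired analysis was possible because the wild-type group holds 1 pool per array type and the labels pair no samples.

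Calls on array type A numbered 2, both lower, under median centring (Camk2d 1427763_a_at and Prkacb 1420610_at), against 0 in the main setting. Calls on B numbered 0 on the deposited scaling, with no filter, without the intensity trend and on scaling by shared probe sets, the last chosen after seeing the data, and 1 under median centring, against 2. They numbered 3 with a pseudocount of 64 and with a stricter filter, at the 60th percentile, where Camk2n2 1429204_at was also called (adjusted p = 0.0316 and 0.0161). Leaving out a pool gives no test. The counts past 2-fold were 0 on A with a pseudocount of 64, against 2, and on B 5 with no filter and 7 on shared scaling, against 3. With 1 pool left out, the count takes 2-fold in the remaining pool alone, a looser criterion than 2-fold in both. On B it was then 3 without pool 1 and 10 without pool 2. The member median on A, 0.052, was -0.027 both on the deposited scaling and on shared scaling, 0.093 under median centring and 0.079 averaged per gene, and without pool 1 or pool 2 it was -0.012 and -0.0077. On B it was 0.23 under median centring and -0.51 on shared scaling, against -0.026. The member median on B was also 0.064 on the deposited scaling, 0.051 with the filter at the 60th percentile and 0.076 averaged per gene. Without pool 1 it was 0.19 and without pool 2 it was -0.13.

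Signs turned for 7 of the named member probe sets. On A these were Camk2g 1423942_a_at (0.11 without pool 1, -0.0077 without pool 2) and Camkk2 1424475_at (-0.027 on the deposited and shared scalings, -0.12 without pool 1, 0.27 without pool 2). On B shared scaling gave Prkch -0.10, Camk2n1 1440455_at -0.093 and Prkar2a 1428783_at -0.49, the last also 0.36 without pool 1 and -0.32 without pool 2. Camk2n1 1456609_at turned to 0.52 on the deposited scaling, 0.69 under median centring and 0.30 without pool 1 (-0.46 without pool 2), and Prkar2a 1452915_at to 0.0053, 0.18 and 0.14 in the same settings (-0.46 without pool 2). The cause of these shifts was not tested. Of the comparisons of single members with a setting that has a test, 261 kept direction and call, 9 turned in sign, 9 lost a call and 4 gained a call. With 1 pool left out there is no call to keep, and 56 values kept their direction within the spread between pools. A further 3 moved beyond that spread and 5 turned in sign.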
